A study of Mus musculus with 3 samples.

Results

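A group of 9 genes of the red blood cell lineage was followed in sorted long-term hematopoietic stem cells, or LT-HSCs. The mice were targeted for deletion of Atm, or of Atm together with p38α, beside controls. The genes were Hemgn, Gata1, Klf1, Tspan33, Car1, Car2, Alas2, Tfrc and Slc4a1. They were selected by symbol from 37323 genes on the array, and all 14 probes that the array design assigns to them were used. The selection was made with the values of these arrays known, so the levels below are a description.

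LT-HSCs were sorted from bone marrow of C57BL/6J mice, and RNA from each of 3 groups was labeled with Cy3 and hybridized to 1 single-color Agilent array. The AtmsKO group carried CAG-CreERT2 and Atm flox/flox, and the Atmp38dKO group carried CAG-CreERT2, Atm flox/flox and p38α flox/flox. The CAG promoter drives the tamoxifen-dependent Cre in nearly all tissues, so the deletion was not limited to blood cells. Per the methods, the Atm+/+ controls, here WT, carried floxed Atm without Cre and also received tamoxifen. Tamoxifen was given at about 5 weeks of age and analysis followed 4 weeks later per the series text, whereas the sample labels state 11 weeks of age. The labels define the cells as CD150+CD48-Flt3-CD34- cells within the lineage-, Sca-1+, c-Kit+ (LSK) fraction, the series text names CD34 and Flt3 alone, and the methods add CD41-. How many mice were behind an array is not stated. With 1 array per group there was no replicate error and no test could be made. The only error available was the scanner software's own estimate for each spot, about 10% of the signal, which covers the measurement of the spot and not the difference between mice.

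Red blood cells arise from LT-HSCs through progenitors that gradually lose other fates. GATA1 and KLF1 are transcription factors that switch on most genes of this program, among them those for globins, heme synthesis, iron uptake and the red cell membrane. Low levels of some megakaryocyte transcripts are known in LT-HSCs, and mature red cell proteins are not part of the LT-HSC phenotype.

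The sequences of the probes mattered for how these genes can be read, and the most informative 30-base windows are shown first. Capitals mark bases within words of 15 or more bases that also occur, on either strand, in a probe of another gene on the array.
Hemgn, probe 1, bases 22 to 51: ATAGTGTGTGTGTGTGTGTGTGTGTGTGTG
Hemgn, probe 2, bases 1 to 30: catatctcttgtggtttcactgaaacactg
Tspan33, probe 1, bases 1 to 30: AAATAAATCTTTAAAAAAggagggggttGG
Tspan33, probe 2, bases 1 to 30: ctgcaccagaactcagtgtttctacagtgt
Alas2, bases 1 to 30: tttgggaacatgggaccccaatatgttacc
Car1, probe 1, bases 1 to 30: attcacaaattttgacccatccagtctgct
Car1, probe 2, bases 1 to 30: ggtccagccaacccaagactgcaaaaagta

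Probe 1 of Hemgn, at mm9 chr4:46407248-46407307 on the minus strand, held an alternating TG repeat of 36 of its 60 bases. It shared a 15-base word with probes of 123 other genes. Probe 2 of Hemgn, at chr4:46407366-46407425, started 118 bases away and shared no such word with any other gene. Probe 1 of Tspan33, at chr6:29664625-29664684 on the plus strand, shared words with probes of 7 other genes, and probe 2, at chr6:29668480-29668539, with none. Of all probes on the array, 2.72% shared a word with 5 or more other genes. The Gata1 probe, the Slc4a1 probe and probe 1 of Klf1 shared a word with 1 other gene each, and the other 7 member probes with none.

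All 14 member probes were well above background on all 3 arrays, and none was saturated. Here and below, a scaled signal is the scanner's processed intensity multiplied so that each array has the 75th percentile of the WT array, a difference is the log2 ratio of 2 scaled signals, and the ± value beside a difference is the combined scanner error of both spots. The values of the 14 probes are drawn in the plot of scaled signals by array, and the differences follow in the plot by comparison. A gene with several probes was represented by its brightest, and it was called higher or lower when it differed at least 2-fold and was well above background on the brighter array.

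**Figure D1:**
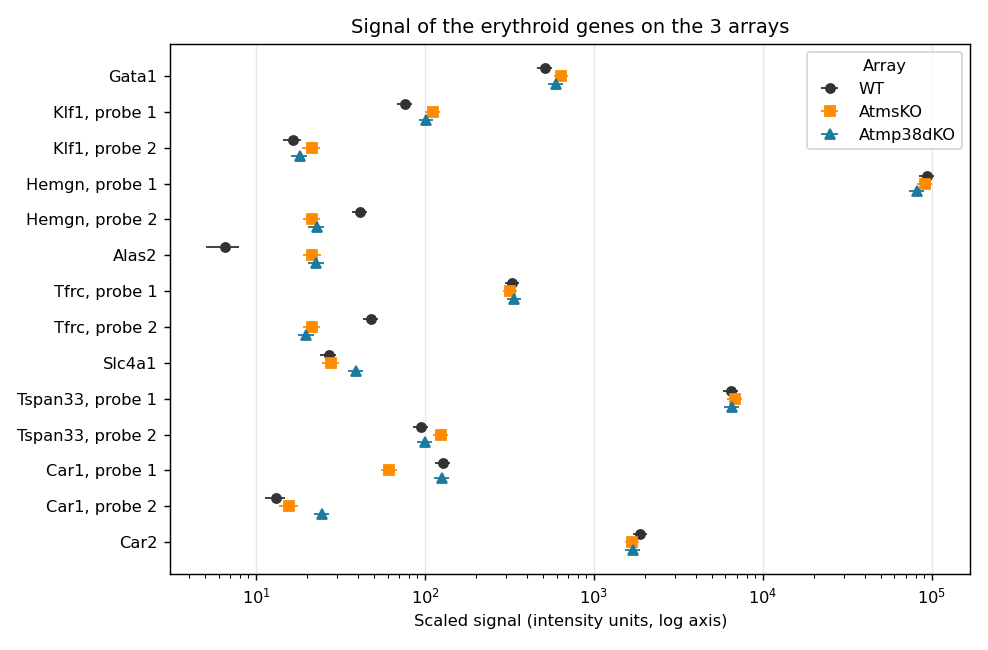
Scaled signal (intensity units, log axis) of the 14 probes of the 9 erythroid genes on the WT, AtmsKO and Atmp38dKO arrays, 1 point per array, with bars of 1 scanner error. Most probes lie close together on all 3 arrays, and the widest separation is that of Alas2, at 6.50 on the WT array against 21.5 and 22.7 on the others.

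The genes targeted for deletion were examined first. Atm probe 1 gave scaled signals of 87.0 on the WT, 25.2 on the AtmsKO and 74.5 on the Atmp38dKO array. Probe 2 gave 88.8, 17.2 and 42.2. Both Atm probes were thus lowest on the AtmsKO array, and the Atmp38dKO array lay between AtmsKO and WT. For probes 1 and 2, the differences from WT were -1.79 ± 0.22 and -2.37 ± 0.24 in AtmsKO. In Atmp38dKO they were -0.22 ± 0.21 and -1.07 ± 0.21. Both Atm probes therefore fell by over 2 scanner errors in AtmsKO, and probe 1 did not in Atmp38dKO. Mapk14, which encodes p38α, gave 469, 589 and 531 with probe 1 and 295, 275 and 298 with probe 2, so neither probe was lower on the array labeled Atmp38dKO by more than its scanner error. Whether the probes of either gene lie in the deleted exons is not stated in the sources used here. How complete the deletion was on the array labeled Atmp38dKO was not tested. Directions below therefore refer to the array labeled Atmp38dKO. All 3 arrays were on 1 slide. Both comparisons with WT share the WT array.

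Among the 9 erythroid genes, 1 was called higher and 1 lower in AtmsKO than in WT. Alas2, the erythroid enzyme that starts heme synthesis, was the higher one, and Car1, a carbonic anhydrase of red cells, was the lower one. Over all 29041 genes tested in this comparison, 3.81% were called higher and 3.98% lower. Between Atmp38dKO and WT, Alas2 was called higher and no member lower, against 3.95% and 4.41% of 30646 genes. Between Atmp38dKO and AtmsKO, Car1 was called higher and no member lower, against 3.7% and 3.62% of 30202 genes. The median difference of the 9 genes was 0.05, 0.04 and 0.01 in these comparisons, and that of all genes tested was 0.01, 0.02 and 0.00. A single gene of 9 in either direction is not read as a result about the group.

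The background was lower among brighter genes. The 7 members other than Alas2 and Slc4a1 had a mean signal of at least 100. Of these 7, Car1 was called lower in AtmsKO than in WT and higher in Atmp38dKO than in AtmsKO, and no other call was made in any comparison. Among all genes this bright, 0.799% were called higher and 0.772% lower in AtmsKO than in WT. The shares were 1.07% and 1.12% for Atmp38dKO against WT, and 0.95% and 0.781% for Atmp38dKO against AtmsKO.

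Just past the 2-fold limit lay Car1, with a difference of -1.05 between AtmsKO and WT and of 1.03 between Atmp38dKO and AtmsKO. The nearest members short of this limit were Klf1, at 0.55 between AtmsKO and WT, and Slc4a1, at 0.53 between Atmp38dKO and WT.

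**Figure D2:**
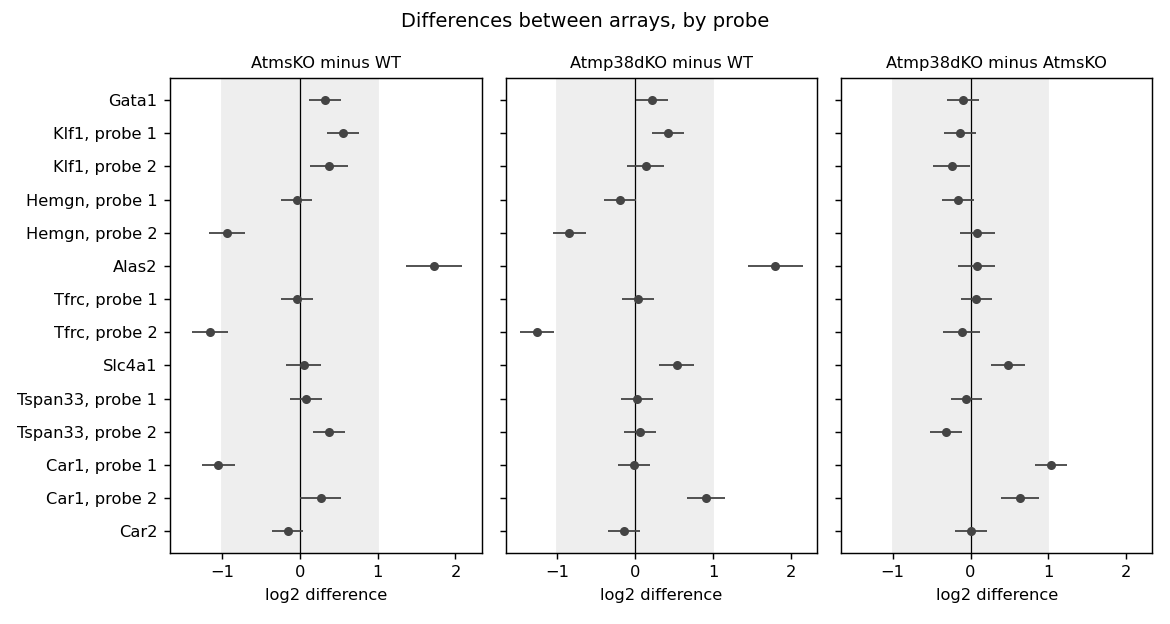
Log2 difference of scaled signal for each of the 14 probes in 3 comparisons, with bars of 1 combined scanner error and gray shading for differences below 2-fold. Alas2, probe 2 of Tfrc and probe 1 of Car1 lie outside the shading between AtmsKO and WT, and the probe pairs of Hemgn, Tfrc and Car1 are apart from each other.

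Among the transcription factors, Gata1, the master regulator of erythroid and megakaryocyte fate, had a scaled signal of 513 on the WT, 641 on the AtmsKO and 597 on the Atmp38dKO array. It was lowest in WT, and the differences of 0.32 ± 0.20 and 0.22 ± 0.20 were within 2 scanner errors. Klf1, the activator of adult β-globin, gave 76.1, 112 and 102 with probe 1. Its differences from WT were 0.55 ± 0.21 and 0.42 ± 0.21, each above 2 scanner errors and below 2-fold. Probe 2 of Klf1, 1781 bases from the first, gave 16.4, 21.4 and 18.1. Both Klf1 probes and the Gata1 probe thus had the same order of arrays, WT lowest and AtmsKO highest, and all differences were below 2-fold.

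Hemgn encodes hemogen, a nuclear protein of hematopoietic progenitors and erythroblasts. Its repeat-bearing probe 1 gave 93658, 91077 and 81678, differences of -0.04 ± 0.20 and -0.20 ± 0.20 from WT. Probe 2 gave 41.0, 21.4 and 22.8, differences of -0.93 ± 0.23 and -0.85 ± 0.22. Probe 2 was thus lower in both mutants by about 4 scanner errors and by less than 2-fold, whereas probe 1 differed by less than 1 scanner error.

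The signal of Hemgn probe 1 was set against the other probes that carry its repeat. Of the 123 such probes, 77 had the repeat on the same strand, and their signals on the WT array ran from 5968 to 128400 with a median of 76707. All 77 were well above background on the 3 arrays, and 76 exceeded 10000, a level reached by 0.882% of all probes. The 46 probes with the repeat on the opposite strand had a median of 21254. The median over all 56600 probes was 22.4. Between AtmsKO and WT the 77 same-strand probes had a median difference of -0.03, and between Atmp38dKO and WT of -0.22, beside -0.04 and -0.20 for Hemgn probe 1. In signal and in difference, probe 1 lay within the range of probes of unrelated genes with the same repeat. The part of Hemgn RNA in its signal was not tested.

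**Figure D3:**
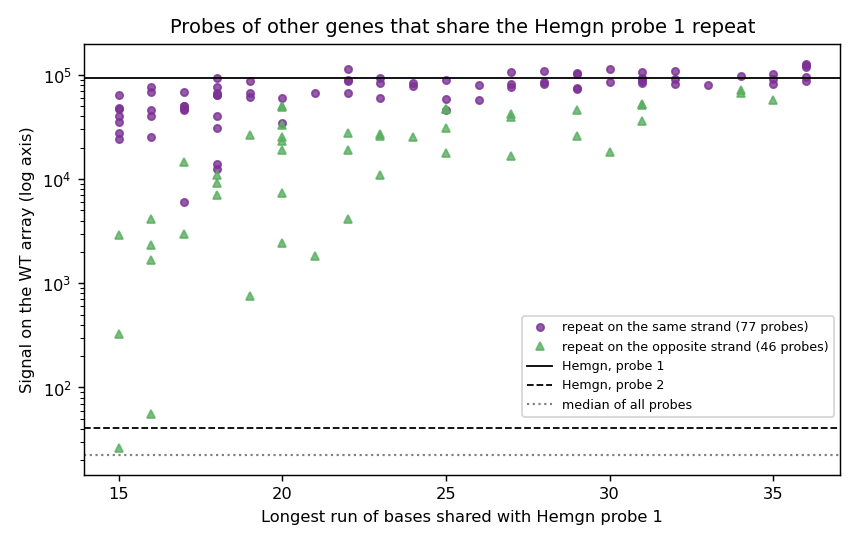
Signal on the WT array (log axis) of the 123 probes of other genes that share a word with Hemgn probe 1, against the longest run of bases shared. Purple circles (77 probes, same strand) lie mostly around the solid line of Hemgn probe 1 at 93658, green triangles (46 probes, opposite strand) reach lower, and the dashed and dotted lines mark Hemgn probe 2 at 41.0 and the median of all probes at 22.4.

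Alas2 on the X chromosome (probe at chrX:147004993-147005052) encodes the erythroid form of 5-aminolevulinate synthase, the first enzyme of heme synthesis. Its scaled signal was 6.50 on the WT, 21.5 on the AtmsKO and 22.7 on the Atmp38dKO array. The WT array alone was low, and the mutants differed from each other by 0.08 ± 0.24. The differences from WT were 1.72 ± 0.36 and 1.80 ± 0.35, or 3.30-fold and 3.48-fold, 4.77 and 5.10 times the scanner error. The WT value was close to the lowest signal that counted as well above background on that array, 5.33. With a different background correction (normexp on the raw mean and local background, with 50 units added to every signal), the differences were 0.30 and 0.18, and Alas2 was no longer called. The added 50 units exceed the Alas2 signal on every array and shrink its log2 differences, so this setting cannot decide whether the call holds.

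Tfrc encodes the transferrin receptor, through which erythroblasts import iron. Probe 1 gave 329, 320 and 338, and no difference exceeded 0.08. Probe 2, 11785 bases away, gave 47.5, 21.4 and 19.8, differences of -1.15 ± 0.23 and -1.26 ± 0.22 from WT. One probe was level across the arrays and the other was highest in WT, as for Hemgn. The gene was not called, because its brightest probe represented it.

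Slc4a1 encodes band 3, the anion exchanger of the red cell membrane. Its single probe gave 26.9, 27.8 and 38.8. The WT and AtmsKO arrays did not differ beyond scanner error, and Atmp38dKO was higher by 0.53 ± 0.22 than WT and by 0.48 ± 0.22 than AtmsKO. Tspan33, a tetraspanin of erythroid progenitors that guides the protease ADAM10, gave 6458, 6817 and 6571 with probe 1 and 95.0, 123 and 99.4 with probe 2. Its differences stayed within 2 scanner errors for both probes in every comparison. The 5 probes of other genes that share words with Tspan33 probe 1 on the same strand ran from 90.3 to 31791 on the WT array, with a median of 7248.

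Carbonic anhydrases speed the exchange of carbon dioxide and bicarbonate, and Car1 and Car2 are those of red cells. Car1 probe 1 gave 127, 61.5 and 126, so the AtmsKO array was low and the other arrays were level. The difference was -1.05 ± 0.21 between AtmsKO and WT, a 2.06-fold lower signal, and 1.03 ± 0.21 between Atmp38dKO and AtmsKO. Probe 2, 2685 bases away, gave 13.1, 15.7 and 24.5. There WT was lowest and AtmsKO was 0.27 ± 0.27 above it. The probes thus disagreed on AtmsKO against WT and agreed that Atmp38dKO was above AtmsKO, by 0.64 ± 0.24 with probe 2. They also disagreed on Atmp38dKO against WT, at -0.01 ± 0.20 with probe 1 and 0.91 ± 0.24 with probe 2. With the mean of both probes Car1 was not called. Car2 gave 1879, 1686 and 1698, and no difference from WT reached 1 scanner error.

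Different probes of a gene often disagreed on this array. Among genes with 2 or more measured probes, the brightest 2 went the same way for 53.5% of 7763 genes between AtmsKO and WT, 54.4% of 8253 between Atmp38dKO and WT and 55.0% of 7894 between Atmp38dKO and AtmsKO. Of the 5 erythroid genes with 2 probes, 4, 3 and 3 did. The median gap between the probes of a pair was 0.36, 0.37 and 0.35 over all such genes, and 0.89, 0.65 and 0.25 over the 5 members. Counted by probe, 2 of the 14 member probes were higher and 3 lower by over 2 scanner errors in AtmsKO than in WT. Of the 37568 probes well above background on both arrays, 13.1% were higher and 13.2% lower by this measure. The member counts were 4 and 2 for Atmp38dKO against WT, beside 14.6% and 14.4% of 39967 probes, and 3 and 0 for Atmp38dKO against AtmsKO, beside 13.3% and 13.2% of 38194.

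The pattern most like that of Alas2 was sought over the 25576 genes that were well above background on every array. The 3 nearest by distance in both differences from WT were Ttll6 (1.69 and 1.73), Gm7160 (1.80 and 1.76) and B430010I23Rik (1.72 and 1.91), and 12 genes lay within 0.25.

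GATA1 binds the letters AGATAA or TGATAA or AGATAG or TGATAG in DNA, so the promoters of the members were searched for these letters on both strands. The 250 bases before the transcription start were taken from RefSeq (GRCm38.p6), which matched 6 of the 9 genes, with Tfrc at 2 starts. Hemgn, Klf1 and Alas2 held 1 match each, marked by capitals, and the promoters of Gata1, Tfrc and Tspan33 held none of these letters. Of 32851 promoters, 26.5% held a match. A KLF1-type box was searched only as the exact letters CCACACCC, which were in none of the 7 member promoters and in 3.20% of all. Other forms of this box were not searched, so the promoters may hold them. The 3 promoters with a match are shown because Alas2 had the largest difference, Klf1 the next in the same direction between AtmsKO and WT, and Hemgn probe 2 the opposite direction.
Alas2 promoter, chrX:150547167-150547416, plus strand: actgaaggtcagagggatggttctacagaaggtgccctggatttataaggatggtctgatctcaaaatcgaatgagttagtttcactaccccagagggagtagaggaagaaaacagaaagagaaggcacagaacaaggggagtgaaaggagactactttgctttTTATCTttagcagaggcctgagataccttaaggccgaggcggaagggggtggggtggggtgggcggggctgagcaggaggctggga
Klf1 promoter, chr8:84901732-84901981, plus strand: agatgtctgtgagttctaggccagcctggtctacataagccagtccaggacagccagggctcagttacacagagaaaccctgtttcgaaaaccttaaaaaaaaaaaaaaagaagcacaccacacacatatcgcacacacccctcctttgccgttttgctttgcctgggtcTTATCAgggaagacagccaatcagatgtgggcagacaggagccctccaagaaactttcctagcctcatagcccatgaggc
Hemgn promoter, chr4:46404184-46404433, minus strand: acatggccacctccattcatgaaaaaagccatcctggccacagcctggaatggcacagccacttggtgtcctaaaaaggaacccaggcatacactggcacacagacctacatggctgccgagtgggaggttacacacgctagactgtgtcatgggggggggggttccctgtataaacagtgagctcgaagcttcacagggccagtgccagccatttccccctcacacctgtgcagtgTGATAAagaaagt
The match stood 86 bases before the start in Alas2, 80 in Klf1 and 13 in Hemgn. A match of these letters is a description of the sequence and does not show binding.

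The members were then placed among 199 genes of 9 erythroid lists, each gene at its brightest probe. No list had more than 3 genes called in one direction in a comparison, as the plot of the lists shows, and the shares over all genes given above (3.81% higher and 3.98% lower in AtmsKO, 3.95% and 4.41% in Atmp38dKO) stand beside every count that follows. Most of these calls ended with normexp background correction. There 50 units were added to every signal, and 0.368% of all genes were called higher and 0.324% lower in AtmsKO than in WT. Against WT, 1 globin was then called higher in each mutant, 1 iron gene higher and 1 late erythroid gene lower in AtmsKO, and 1 gene of erythropoietin signaling lower in Atmp38dKO, and no other gene of the 9 lists was called. Of the 199 brightest probes, 5, those of Tal1, Dmtn, Ackr1, Tyk2 and Tspan15, shared words with 5 or more other genes.

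**Figure D4:**
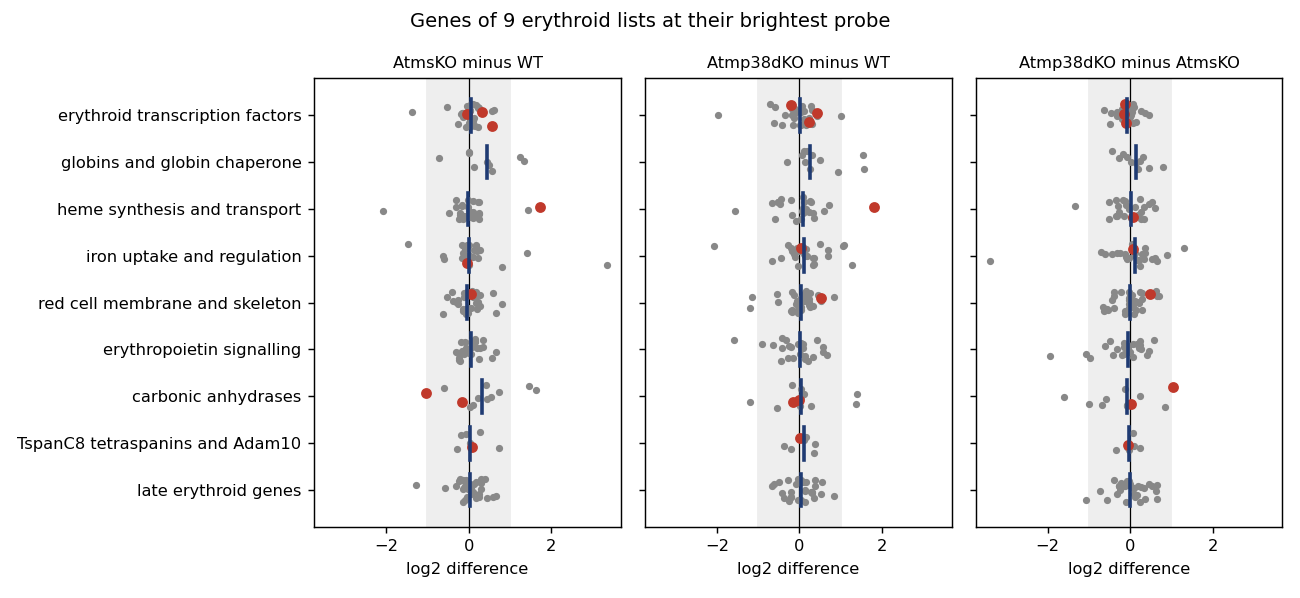
Log2 differences of the genes of 9 erythroid lists in 3 comparisons, 1 point per gene well above background on either array, with the 9 members in red, a blue bar at each list's median and gray shading for differences below 2-fold. Between AtmsKO and WT the medians of the globins (0.45) and the carbonic anhydrases (0.33) are highest, and those of the other lists lie between -0.04 and 0.06.

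Of 30 erythroid transcription factors, 0 were called higher and 1 lower in AtmsKO than in WT, with a median of 0.05. Runx1t1, a corepressor, was the lower one, at 16.8 in WT and not well above background on the mutant arrays, so it was at least 2.60-fold lower in AtmsKO and at least 3.92-fold lower in Atmp38dKO. Bach1, a heme-regulated repressor, was called higher in Atmp38dKO than in WT, with scaled signals of 42.3, 62.4 and 85.3. Among factors well above background on every array, the extremes were otherwise below 2-fold. Sox6, which represses embryonic globin, was 0.62 higher in AtmsKO than in WT, Cbfa2t3, a partner of TAL1, 0.54 lower, and Klf3, a repressor of KLF1 targets, 0.70 lower in Atmp38dKO than in WT. The next probes of Sox6 gave -0.01 and -0.43, and those of Klf3 0.28 and 0.22, in the same comparisons, so these values rested on 1 probe each.

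Globins form hemoglobin, and 12 of 13 listed genes, with their chaperone Ahsp, were on the array. Hbb-bt and Hbb-b2, adult β-globins, were called higher in both mutants than in WT, 2 of 9 genes tested for AtmsKO and 2 of 11 for Atmp38dKO. Hbb-bt gave 137, 349 and 396, differences of 1.35 and 1.53. Hbb-b2 gave 7.88, 18.7 and 23.2, differences of 1.24 and 1.56. As for Alas2, WT was the low array, and the mutants differed from each other by less than 2-fold. These genes are near-identical in sequence, so their probes may share RNA.

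The remaining adult globins moved less. Hbb-b1 gave 7.03, 10.5 and 9.89, and Hba-a2 gave 12.3, 17.3 and 23.5. The probes of Hba-a1 disagreed, with 88.2, 53.9 and 92.9 for the first and 17.2, 22.5 and 29.3 for the second. Ahsp, which stabilizes free α-globin, was level at 10.6, 10.6 and 11.6. The embryonic Hbb-bh1 (14.6, 19.9 and 16.6) and Hbb-y (9.54, 10.5 and 7.79), and the β-like Hbb-bh2, at 37.6, 38.1 and 44.6, were not called. Hba-x was not well above background on any array, and Hbq1a and Hbq1b only on the Atmp38dKO array, at 5.76 and 6.53. Whether the globin and Alas2 signals came from RNA of the LT-HSCs or of a few other cells was not tested, and fewer cells of a type and less RNA per cell cannot be told apart in sorted bulk RNA.

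Of 27 genes of heme synthesis and transport, Alas2 and the heme transporter Flvcr2 were called higher and Clpx, the mitochondrial chaperone that activates ALAS, lower in AtmsKO than in WT. In Atmp38dKO, Alas2 was again called higher and Clpx lower than in WT. Clpx gave 52.4, 12.3 and 17.6 with its brightest probe and 20.9, 23.9 and 19.0 with its other probe, so the call rested on 1 probe. Flvcr2 was not well above background in WT, at least 2.70-fold lower than its 14.4 in AtmsKO. The nonerythroid Alas1 gave 53.3, 57.6 and 65.2, and Alad 57.3, 67.7 and 93.5. Uros gave 116, 83.4 and 77.4, Urod 419, 419 and 504, and Cpox 125, 124 and 135. Ppox gave 171, 169 and 214, and Fech, which inserts the iron, 113, 102 and 120. Of these enzymes of the pathway, Alas2 alone was called at its brightest probe, and the others named here differed from WT by at most 0.71.

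Of 27 genes of iron uptake and regulation tested in each comparison with WT, 2 were called higher in AtmsKO and 3 in Atmp38dKO, and Hfe was called lower in both. Slc11a2, the divalent metal transporter, gave 26.5, 270.2 and 25.5 with its brightest probe, a difference of 3.35 between AtmsKO and WT, whereas its next probes gave 37.1, 43.3 and 39.7, and 38.8, 18.4 and 34.8. The iron exporter Slc40a1 was also called higher in AtmsKO, at 14.1, and was not well above background in WT. In Atmp38dKO, Aco1, an iron-responsive RNA-binding protein (139, 158 and 291, with 37.0, 24.0 and 31.0 at its other probe), the ferric reductase Cybrd1 (6.62 in WT, 15.9 in Atmp38dKO) and Erfe, which encodes the hormone erythroferrone (10.9, 19.1 and 22.6), were called higher than in WT. Hfe, a partner of the transferrin receptor, gave 17.9 in WT and was not well above background in the mutants. Its other probe was well above background on both mutant arrays and not on WT, so the call rested on 1 probe.

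Of 35 red cell membrane and skeleton genes tested, 0 were called in AtmsKO against WT, and Kel and Xk, which form a blood group complex, were called lower in Atmp38dKO than in WT. Kel gave 11.1, 7.24 and 4.95, and Xk 23.5, 16.4 and 10.3. Epb42, which encodes protein 4.2, a partner of band 3, was not well above background on any array, whereas Slc4a1 was on all 3.

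Of 25 genes of erythropoietin signaling, 0 were called between AtmsKO and WT. Pim1, a survival kinase induced by STAT5, was called lower in Atmp38dKO than on both other arrays, with 936, 1196 and 312. Bcl2l1, which encodes BCL-XL, gave 329, 519.5 and 247 and was called lower in Atmp38dKO than in AtmsKO. Epor, the receptor, gave 68.8, 58.1 and 79.9 with probe 1 and 34.2, 58.4 and 39.4 with probe 2, so the probes disagreed on AtmsKO. Of 31 late erythroid genes tested, Slc43a1, an amino acid transporter, was called lower in AtmsKO, with 297, 123 and 189, and no other gene was called against WT.

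Of 12 carbonic anhydrases tested in each comparison with WT, Car4 (10.1, 27.8 and 26.4) was called higher in both mutants. Car15 was called higher in AtmsKO, where it was 16.5 and in WT not well above background. Car13 gave 18.9, 27.5 and 49.0 and was called higher in Atmp38dKO, and Car8 was called lower there, from 10.4 in WT. Car3 (58.7, 97.0 and 60.2), Car7 (481, 513 and 490), Car9 (147, 151 and 179), Car10 (11.4, 15.6 and 7.80), Car11 (19.8, 23.3 and 21.5) and Car14 (19.2, 25.8 and 17.1) were not called. Car5a, Car5b, Car6 and Car12 were not well above background on any array. Car1 was thus the only carbonic anhydrase called lower in AtmsKO than in WT. That call rested on its probe 1, and probe 2 was 0.27 higher in AtmsKO than in WT.

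Tspan33 belongs to the TspanC8 tetraspanins, which carry ADAM10 to the cell surface, and none of these 6 genes nor Adam10 was called in any comparison. Tspan5 gave 320, 529 and 415, Tspan14 722, 636 and 624, and Tspan15 130, 124 and 145. Tspan17 gave 49.5, 50.9 and 53.6, Tspan10 14.4, 11.9 and 11.2, and Adam10 2546, 3062 and 3271.

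The sorted cells were checked against their defining markers. All 24 LT-HSC markers were well above background on all 3 arrays, Kit at 2652, 2925 and 2798, Ly6a, which encodes Sca-1, at 488, 604 and 482, and Slamf1, which encodes CD150, at 147, 103 and 122. Their summed scaled signal was 21196 in WT, 21106 in AtmsKO and 18698 in Atmp38dKO, and Fgd5 and Hoxb5 were called lower in Atmp38dKO and Ndn lower in AtmsKO than in WT. Transcripts of proteins that the gate excludes were also measured, with Cd34 at 1694, 1757 and 1883 and Cd48 at 17.2, 22.4 and 29.3. Flt3 was at 79.4, 74.1 and 86.8, and Itga2b, which encodes CD41, at 169, 127 and 144. They did not move one way, with Cd48 highest in Atmp38dKO and Itga2b highest in WT. Over the 9 listed genes of excluded proteins, the median difference from WT was 0.04 in AtmsKO and 0.03 in Atmp38dKO.

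Beside the member calls, the markers of other blood cells moved as follows, with probes that share words with 5 or more other genes left out of the sums. The 20 megakaryocyte and platelet markers summed to 5179, 6558 and 5354, with 19, 20 and 20 well above background. Pf4 alone gave 1020, 2496 and 1323, and the median difference of the list between AtmsKO and WT was 0.05. Pf4 and Vwf were called higher in AtmsKO, and 1 gene lower in Atmp38dKO, than in WT. Granulocyte markers summed to 3735, 4478 and 4261, with 18, 18 and 20 of 20 well above background, and 1 was called higher in Atmp38dKO than in WT. Monocyte and macrophage markers summed to 4442, 4503 and 4215, with 15 of 20 well above background on each array and Mrc1, Cx3cr1, Ccr2 and Fcgr1 on none. Against WT, 2 of them were called higher and 1 lower in AtmsKO, and 1 higher and 2 lower in Atmp38dKO. Mast cell and basophil markers summed to 527, 502 and 486, with 9, 8 and 10 of 15, and 1 was called lower in AtmsKO and 2 higher and 1 lower in Atmp38dKO than in WT. B lymphoid markers summed to 789, 759 and 784, with 10, 9 and 12 of 14 and Rag1 and Rag2 on none, and T lymphoid markers to 1345, 1408 and 1687, with 11, 11 and 12 of 14 and Il7r on none. Against WT, 2 B lymphoid markers were called lower in AtmsKO and 1 in Atmp38dKO, and 1 T lymphoid marker higher in Atmp38dKO. Endothelial and stromal markers summed to 1130, 1331 and 1031, with 13, 13 and 14 of 15 and Cdh5 on none. Of the 13 tested, Kdr, Vwf and Pdgfrb were called higher in AtmsKO than in WT, Kdr by 4.35. Kdr gave 5.88, 120 and 15.6, and its WT value was close to the lowest signal well above background, 5.33. No other Kdr probe was well above background on both arrays of a comparison. Of 2 other Vwf probes, 1 went the same way in AtmsKO. Kdr was also called higher in Atmp38dKO than in WT, and Kdr, Cxcl12 and Pdgfrb were called lower in Atmp38dKO than in AtmsKO. The globin list summed to 341, 548 and 643, and without Hbb-bt to 204, 199 and 247. The part of other cells in the member differences was not tested.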

How the data were processed

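Sorted LT-HSC RNA of 3 groups, 1 array each, was measured on single-color Agilent arrays, and groups were taken from the sample titles. Members and gene lists were chosen with earlier results of these data known. The deposited scanner files hold intensity per spot, made for the authors with Agilent Feature Extraction 11.5.1.1, per the labels, as a processed intensity that is background-subtracted and detrended within an array and not normalized between arrays. The authors' deposited log2 table equaled log2 of the processed intensity up to a constant per array, within 0.02 for 99.8% to 100.0% of probes. It was used as an alternative. The file headers give probe positions on mm9.

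Control and outlier spots (57, 75 and 83) were left out and spots of a probe averaged. A probe passed as well above background when over 50% of its spots did, which held for 73.3%, 68.9% and 77.7% of probes in WT, AtmsKO and Atmp38dKO. Signals were scaled to the 75th percentile over non-control probes, so that only relative levels remain. Dim values were raised to the lowest signal well above background on the array unless higher. RefSeq (GRCm38.p6) named 32991 of 56605 probes, and 5 probes without a usable spot on every array were left out.

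Named genes were the members, Atm and Mapk14, the largest rise and fall per list, fixed families (globins, heme enzymes, carbonic anhydrases, TspanC8 genes), the 3 genes nearest to Alas2, and marker genes. Genes called in a list were also named after their values were seen, and a few listed genes are not reported here. Alternatives were normexp (limma 3.58.1, R 4.3.3), quantile normalization, median centering, the authors' log2 table, no floor, the mean of all probes, both arrays above background, 1.5-fold and 4-fold. One was chosen after seeing the data, namely leaving out probes that share a 15-base word with 5 or more other genes. Normexp was run with an offset of 50 added to every signal, which shrinks the log2 differences of dim probes. The number of arrays limits the precision. Python 3.11.15 was used for all other steps.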

Additional observations from a re-analysis of the deposited data

How the results depend on the processing

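No call of a member changed direction under any alternative. With normexp background correction, 0 members were called in any comparison, among all or among brighter genes. Between AtmsKO and WT, 0.368% of all genes were then called higher and 0.324% lower. Among brighter genes the shares were 0.231% and 0.257%. At such shares a count of 0 is not read as a result about the members. Raising the limit to 4-fold, which can only lower a count, also left 0 members called. With the mean of all probes, 0 members were called lower in AtmsKO than in WT and 0 higher in Atmp38dKO than in AtmsKO, overall and among brighter genes, the mean Car1 differences being -0.39 and 0.84. Quantile normalization, median centering, the authors' log2 table, no floor, the demand that both arrays be above background, a 1.5-fold limit and leaving out probes with repeated words each left the member counts as they were. Leaving out those probes changed Hemgn to its probe 2, at -0.93 and -0.85 from WT, and Tspan33 to its probe 2, at 0.38 and 0.07. Of 189 member differences under alternatives, 18 moved by more than the scanner error. Of 378 list counts, 68 moved by over 1.5 times, 24 of them with normexp. The 50 units that normexp added to every signal shrink the log2 differences of dim probes. How much of the change came from this was not tested. The WT signal of Alas2 lies near background. No paired analysis was possible because there was 1 array per group, so that no test was made and no array could be left out.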
